A study of Mus musculus with 28 samples.

Results

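Binding of the retinoid X receptor (RXR) was mapped by chromatin immunoprecipitation with sequencing in IDG-SW3 cells at day 35, after 3 h with 100 nM 1,25(OH)2D3, the active vitamin D hormone, or with vehicle. Each arm had 2 biological replicates, so 4 of the 28 samples of the series, and 28936 of its 937290 called regions, are described here. IDG-SW3 is a single mouse bone cell line that carries a Dmp1-promoter GFP transgene. It is expanded at 33 °C with interferon gamma, and both arms had been matured at 37 °C in osteogenic medium without it. The labels call these cells osteocytic, name the RXR antibody ΔN-197, and do not say what the vehicle was.

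Where peaks of both replicates of an arm shared at least 1 bp, they were merged into a consensus site. There were 6783 such sites with hormone and 3628 with vehicle. A hormone site was called kept where it overlapped a vehicle consensus site (3434 sites, 50.6%) and gained where it overlapped no peak of either vehicle list (1303 sites, 19.2%). The remaining 2046 sites (30.2%) overlapped a peak of a vehicle list but no vehicle consensus site. A vehicle site was called lost where neither hormone list had a peak there, which held for 22 sites (0.606%). Deposited scores are the authors' own peak scores. Their scaling between lists is not stated, so ranks are given within a list, as the percentile of a peak's score. The depth of the libraries is unknown. Where 2 values are given for an arm, that of replicate 1 comes first.

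RXR is the shared partner of a group of nuclear receptors. Together with the vitamin D receptor (VDR), retinoic acid receptors, liver X receptors, PPARs or thyroid hormone receptors it binds pairs of hexamer half-sites, and the spacing of the direct repeat differs between partners. The VDR and RXR pair is known for direct repeats spaced by 3 bases (DR3), and the retinoic acid receptor and RXR pair for repeats spaced by 5 (DR5). In bone cells the hormone acts through VDR on genes of mineral handling, matrix and its own breakdown. A VDR site here is a VDR peak called in both hormone replicates, from libraries other than the RXR ones, and 1218 such sites were used.

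The sequences below show examples of repeats at RXR sites named in the results, read from the mm9 reference, 5′ to 3′ on the strand of the repeat. Capitals mark the 2 half-sites of the repeat with the fewest mismatches to a half-site at the stated spacing. A half-site was AGGTCA or AGTTCA or either of these with G as its first base.
The first 6 sites were also called with vehicle and scored higher with hormone, the next 3 were gained, and all of these 9 hold VDR. The 9 are examples chosen to show repeats, and a DR3 is not in every such site: of the 46 sites that scored higher, 7 have an exact DR3 in their central 200 bp and 27 one with up to 1 mismatch. The last is the kept RXR site at the start of Rarb, which has no VDR.
Pex3 site, chr10:13316181-13316245, minus strand, DR3 with 1 mismatch: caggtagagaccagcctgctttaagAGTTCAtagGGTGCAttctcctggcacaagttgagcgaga
Cngb3 site, chr4:19238398-19238462, plus strand, DR3 with 1 mismatch: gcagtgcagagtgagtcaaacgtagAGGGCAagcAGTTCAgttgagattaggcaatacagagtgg
Grik1 site, chr16:88042849-88042913, plus strand, DR3 with 1 mismatch: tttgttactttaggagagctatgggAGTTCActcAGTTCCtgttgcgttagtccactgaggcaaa
Cdkn2b site, chr4:89092743-89092807, plus strand, DR3 with 0 mismatches: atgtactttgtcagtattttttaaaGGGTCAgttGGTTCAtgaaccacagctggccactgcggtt
Cebpb site, chr2:167590743-167590807, minus strand, DR3 with 0 mismatches: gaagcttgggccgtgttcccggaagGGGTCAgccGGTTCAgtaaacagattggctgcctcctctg
Sparc site, chr11:55219491-55219555, plus strand, DR3 with 0 mismatches: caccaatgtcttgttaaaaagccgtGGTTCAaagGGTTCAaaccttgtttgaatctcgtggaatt
Arid5b site, chr10:67596742-67596806, plus strand, DR3 with 0 mismatches: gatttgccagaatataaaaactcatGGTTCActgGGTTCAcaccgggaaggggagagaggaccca
Pla2g4a site, chr1:151661380-151661444, minus strand, DR3 with 1 mismatch: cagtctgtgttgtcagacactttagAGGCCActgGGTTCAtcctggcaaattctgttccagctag
Cyp24a1 site, chr2:170322880-170322944, plus strand, DR3 with 2 mismatches: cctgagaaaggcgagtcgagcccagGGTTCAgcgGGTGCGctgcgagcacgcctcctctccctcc
Rarb site, chr14:17408002-17408068, minus strand, DR5 with 0 mismatches: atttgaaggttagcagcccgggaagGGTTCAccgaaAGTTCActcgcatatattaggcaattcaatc

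The cells' own label was checked on active chromatin over gene start sites at day 35, from untreated libraries of the same series. H3K27Ac covered the starts of all 6 osteoblast markers tested and of 4 of 6 osteocyte markers (Dmp1, Phex, Mepe and Pdpn). H3K4me3 covered fewer, at 3 of 6 osteoblast and 1 of 6 osteocyte starts (Dmp1). It covered 1 of 4 adipocyte starts (Pparg) and 0 of 4 neural ones. The starts of Sost and Fgf23 had neither H3K27Ac nor H3K4me3. No start of the 4 myogenic, 4 haematopoietic or osteoclast and 4 endothelial markers was covered by either mark, and 2 of 4 adipocyte markers (Pparg and Lep) and 1 of 4 neural markers (Tubb3) had H3K27Ac. The replicate 2 RXR lists of both arms carry the tag BIOO in their names and the replicate 1 lists do not, so each arm holds 1 list of each kind. What the tag marks is not stated.

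The hormone lists were longer, and the vehicle sites were nearly all found in them. RXR peaks numbered 6875 and 4093 with vehicle and 10333 and 7635 with hormone, 1.67 times as many by geometric means (exact two-sided permutation test, p = 0.333, the smallest p that 2 libraries against 2 allow). Each replicate 1 list was longer than the replicate 2 list of its arm, and the shorter hormone list exceeded the longer vehicle list by less than the lists of an arm differed. The lowest scores were 3.3 and 3.6 with vehicle and 2.3 and 2.6 with hormone. Among the 1000 highest-scoring vehicle peaks of each list, 98.6% to 99.5% had a peak in a given hormone list. In the other direction, 93.8% and 93.9% of the 1000 highest hormone peaks were found in vehicle replicate 1, and 86.8% and 88.7% in vehicle replicate 2. With every list limited to its 4093 best peaks, 66.2% to 72.2% of peaks were shared between arms, 70.7% between the vehicle replicates and 74.8% between the hormone replicates. At this equal length 403 of 3062 hormone sites (13.2%) were gained and 227 of 2892 vehicle sites (7.85%) were lost. With the higher-scoring 50% of each list, which keeps the difference in length, 1.48% of vehicle sites were lost. At a fixed length, peaks that rise in rank also push others out. How much of the lost share goes with list length alone was not tested.

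VDR stood at the strong end of all 4 lists, at a higher share with hormone. Of the 250 RXR peaks with the highest scores, 39.6% (95% Wilson interval 33.7 to 45.8) in hormone replicate 1 and 37.6% (31.8 to 43.8) in replicate 2 overlapped a VDR site. The same ranks of the vehicle lists gave 16% (11.98 to 21.1) and 18% (13.7 to 23.2), for the same set of VDR sites. In the hormone lists the share fell with rank, to 13.7% and 12.6% at ranks 1001 to 2000 and to 3.65% and 4.85% at ranks 4001 to 6000. In the vehicle lists it fell too, to 7.2% and 5% at ranks 1001 to 2000. Over the 4093 best peaks the share was 13.9% and 14.3% with hormone and 6.47% and 6.35% with vehicle. The libraries of the arms did not overlap, and the difference of means was 7.67 percentage points (exact two-sided permutation test, p = 0.333, the smallest possible). The share of these peaks at most 1 kb from a transcription start site (TSS) was 9.58% and 10.9% with vehicle and 8.87% and 9.43% with hormone, a difference of -1.08 points (exact permutation test, p = 0.333) that turned to 0.833 points over all peaks.

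**Figure D1:**
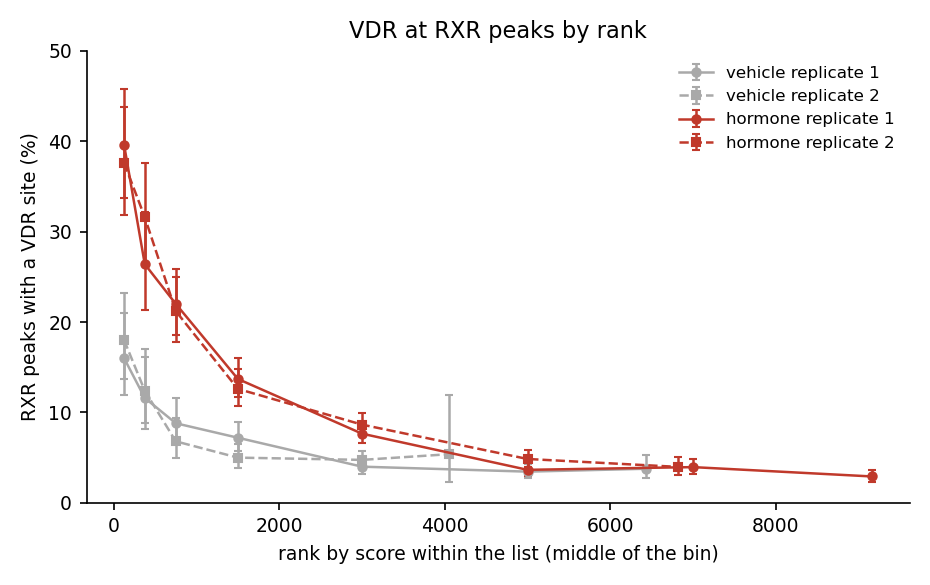
Percent of RXR peaks that overlap a VDR site (y axis) against rank by score within each of the 4 RXR lists (x axis, middle of each rank bin); bars are 95% Wilson intervals. Both hormone lists start near 40% and both vehicle lists under 20%, and the last bins of the lists lie between 2.92% and 5.38%.

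Gained sites fell into a group with VDR and a larger group without. Of the 1303 gained sites, 342 held VDR. These had median scores of 10.0 and 10.2 in the hormone lists, at median percentiles of 71.1 and 63.4. The 961 gained sites without VDR had median scores of 6.8 and 7.6, at median percentiles of 30.9 and 26.1. In the top 25% of both hormone lists stood 26.9% (22.5 to 31.8) of gained sites with VDR and 0.728% (0.353 to 1.496) of those without, or 7 sites. In the lower 50% of both lists stood 19.9% and 65.8%. Kept sites with VDR ranked highest, with 84.3% (79.2 to 88.3) in the top 25% of both hormone lists, against 36.5% (34.9 to 38.2) of kept sites without. Median percentiles of kept sites with VDR were 95.5 and 93.7. Of the 2046 sites with a vehicle peak but no vehicle consensus site, 113 held VDR. These 113 had median percentiles of 86.85 and 81.13, between those of gained and kept sites with VDR. VDR stood at 26.25% (23.9 to 28.7) of all gained and 7.22% (6.40 to 8.14) of all kept sites. Between lists of equal length it stood at 58.6% (53.7 to 63.3) of the 403 sites gained and 9.88% of the 2155 kept. It stood at 0 of the 227 lost there, which allows a share of up to 1.66% in this setting. The contrast of gained and kept sites was smaller with the RXR and VDR lists of 1 replicate alone. There VDR stood at 13.7% and 13.3% of gained, 7.88% and 7.73% of kept and 1.98% and 1.75% of lost sites.

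**Figure D2:**
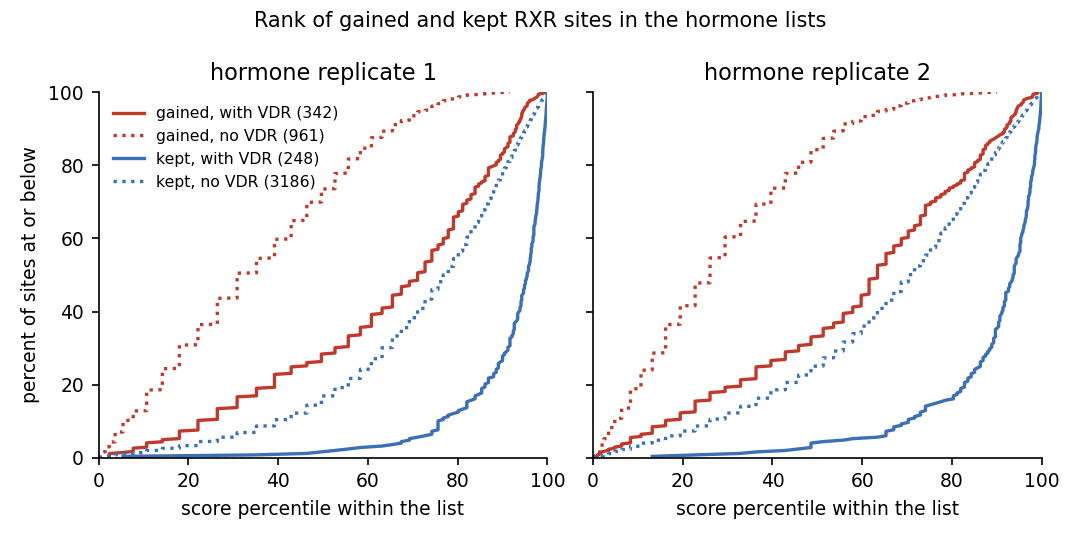
Cumulative percent of sites (y axis) at or below each score percentile (x axis) in the 2 hormone lists, for gained and kept RXR sites with and without VDR; site numbers are in the legend. Gained sites without VDR gather at low percentiles (medians 30.9 and 26.1), gained sites with VDR lie higher (71.1 and 63.4) and kept sites with VDR lie at the top.

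The 12 gained sites with the best ranks all held VDR. The first lay 108 kb from the TSS of Pla2g4a, a phospholipase that releases arachidonic acid, with scores of 50.8 and 35.4 in the hormone lists (chr1:151661251-151661565). Next were an intronic site of Zbtb20, a zinc finger repressor, with 32.6 and 35 (chr16:43256735-43257052), and a site 5.81 kb upstream of Wdr81 with 24.8 and 25.7. An intronic site of Igsf3, a membrane protein of the immunoglobulin superfamily, had 23.2 and 26.3. The site of Arid5b, a DNA-binding cofactor of histone demethylation, lay in an intron 2.60 kb from the TSS with 23.9 and 23.1, around the DR3 printed above. An intronic site 2.54 kb from the TSS of Abcg8, a sterol exporter, had 20.3 and 26.7. Neu3, a sialidase, and Zfp691 held gained sites within 1 kb of their TSS, with 22.1 and 21 and with 19.4 and 20.2. The others were nearest to 4933411K16Rik, where the site lay in a coding exon, Ccl9, a chemokine, Gm22 and Poli, a DNA polymerase, with scores from 18 to 26.3. A DR3 with up to 1 mismatch was in the central 200 bp of 5 of the 12. All 12, picked by their rank in the hormone lists, had scores of 18 or more in both. A VDR peak with vehicle stood at 2 of them (Pla2g4a and Wdr81), and H3K27Ac covered 10 at day 3 and 12 at day 35.

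Lost sites were few, with median percentiles of 39.7 and 35.2 in the vehicle lists, beside 39.2 and 32.9 for gained sites in the hormone lists. The best-ranked lay 73.8 kb from Tacc1, which encodes a centrosomal protein, with scores of 16.4 and 13.5 in the vehicle lists (percentiles 93.3 and 87.3). The next were nearest to Col3a1 (8.4 and 11.8), a fibrillar collagen, Lsm3 (8.6 and 9.9), Trappc3 (9.5 and 9.1), Pla2g4a (10.7 and 8.2), Ttll7 (9.2 and 8.5), Zbtb20 (7 and 11) and Csf1 (8.6 and 8.8), a macrophage growth factor. None of the 22 lost sites held a VDR site, which allows a share of up to 14.9%. VDR sites were read with hormone, where lost sites had no RXR peak by definition. The 0 is therefore no measure of VDR at these sites with vehicle. None of the lost sites named so far had a VDR peak with vehicle. Within 1 kb of a TSS lay 5 of the 22. Of the 22, 7 had a hormone peak within 1 kb and 11 within 10 kb. The lost site of Pla2g4a lay 0.47 kb from the strongest gained site described above. Those of Tacc1 and Mical2 lay 0.764 and 0.728 kb from hormone peaks that held VDR, with scores of 23.6 and 17.4. The other 4, nearest to Col3a1, Slc14a2, Trappc3 and Wrn, lay 0.491 to 0.631 kb from hormone peaks without VDR, with scores of 7.7 to 10.2. No list held 2 peaks whose centres were closer than 536 bp, about 2 peak widths. Of the gained sites, 40 (3.07%) had a vehicle peak within 1 kb, 12 of them with VDR.

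Sites that were called in all 4 lists allowed a test of the score itself, and those that rose with hormone almost all held VDR. The test was made with limma on log2 scores, each list centred on its median, over 3438 sites, with Benjamini-Hochberg adjustment over all of them. It called 46 sites higher with hormone (1.34% of those tested) and 2 lower (0.0582%). VDR stood at 45 of the 46 higher sites. Of all 248 tested sites with VDR, 45 were called higher, whereas 1 of 3190 sites without VDR was. The exception, an intronic site 4.51 kb from the TSS of Ifltd1, had scores of 6.2 and 9.1 with vehicle and 15.7 and 16.6 with hormone. The median log2 difference was 0.37 over sites with VDR and -0.02 over sites without. Both hormone libraries stood above both vehicle libraries at 157 of the 248 sites with VDR (63.3%), beside 16.7% of all sites tested, and below them at 5 (2.02%), beside 16.4%.

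The count of higher sites changed when single libraries were left out, in fits where the arm of 1 library is assumed to vary like the other. Without hormone replicate 1 it was 18, and without hormone replicate 2 it was 24, and all of these sites held VDR. Without vehicle replicate 1 it was 64, of which 50 held VDR, and without vehicle replicate 2 it was 44, of which 41 did. Before centring, the median score of the tested sites was higher with hormone by 0.19 on the log2 scale. Differences are therefore relative to that shift, and without centring 77 sites were called higher, 66 of them with VDR.

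**Figure D3:**
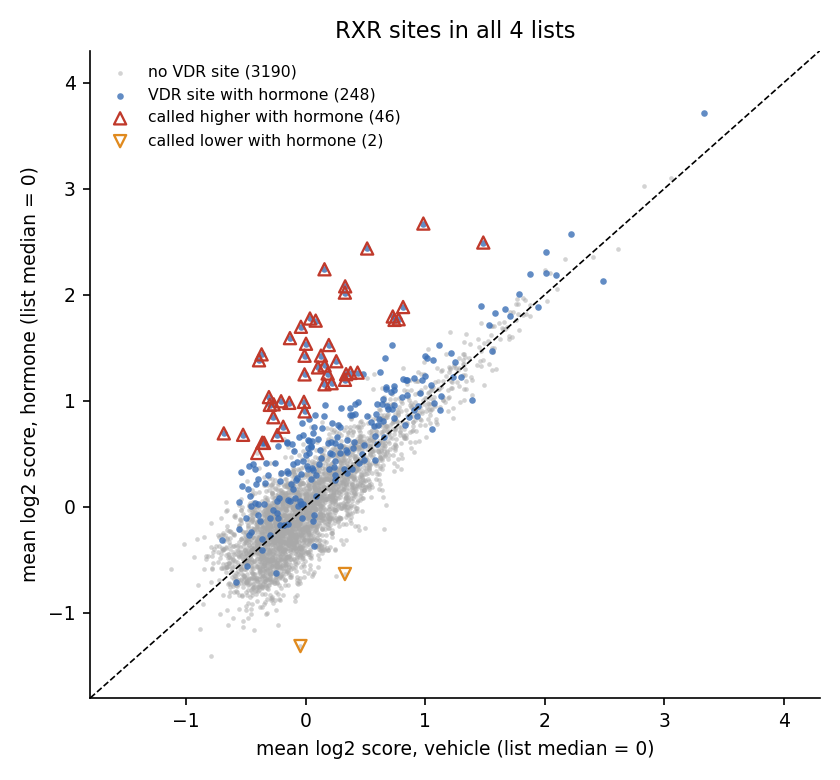
Mean log2 score with hormone (y axis) against vehicle (x axis) for the 3438 RXR sites called in all 4 lists, each list centred on its median, with the dashed line marking equality. Sites with VDR (248) lie mostly above the line, 45 of the 46 sites called higher hold VDR, and the 2 sites called lower hold no VDR site.

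The largest rise was at a site 43.3 kb upstream of Pex3, a peroxisome assembly protein (chr10:13316056-13316370). Its scores were 10.7 and 11.5 with vehicle and 53.5 and 53.7 with hormone. The log2 difference was 2.08 (SE 0.24), or 4.23-fold on the centred scale (limma, adjusted p = 9.6e-15). An intronic site 30.5 kb from the TSS of Cngb3, a cyclic nucleotide-gated channel subunit, went from 17.1 and 11.8 to 64.4 and 58.6, a log2 difference of 1.92. The site of Cebpb, a transcription factor of the C/EBP family, lay 76.4 kb from its TSS and had the highest hormone scores of the 10 largest rises. It went from 22 and 17.6 to 71.3 and 73.3 (log2 difference 1.69), around the exact DR3 printed above. The site 136 kb upstream of Cdkn2b, an inhibitor of cell cycle kinases, also has an exact DR3 and rose by a log2 difference of 1.74, to 37.3 and 40.5.

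A DR3 with up to 1 mismatch was in 8 of the 10 sites with the largest rises, all but those of Vmn1r43 and Adamtsl5. A VDR peak with vehicle stood at all of the 10 but those of Cngb3, Grik1 and Vmn1r43. In each of the 10 both hormone scores exceeded both vehicle scores, as at all 46 higher sites. The 10 were picked by these same scores. The gap between arms at each, also in refits of these scores, is therefore no independent evidence. The site at the TSS of Agpat1, an enzyme of phospholipid synthesis, rose from 13.6 and 11.5 to 43.7 and 52.6, and that 0.107 kb upstream of Adamtsl5 had 41.2 and 32.9 with hormone. The intronic Enpp3 site lay 57.7 kb from the TSS of this pyrophosphatase gene and rose from 10.9 and 14.3 to 42.1 and 50.3. The sites nearest to Grik1, a glutamate receptor subunit, Vmn1r43, a vomeronasal receptor, and Map3k7, a kinase of TGF-beta signalling, had log2 differences of 1.81, 1.77 and 1.72. All 10 sites were called higher in every alternative fit in which they were tested.

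**Figure D4:**
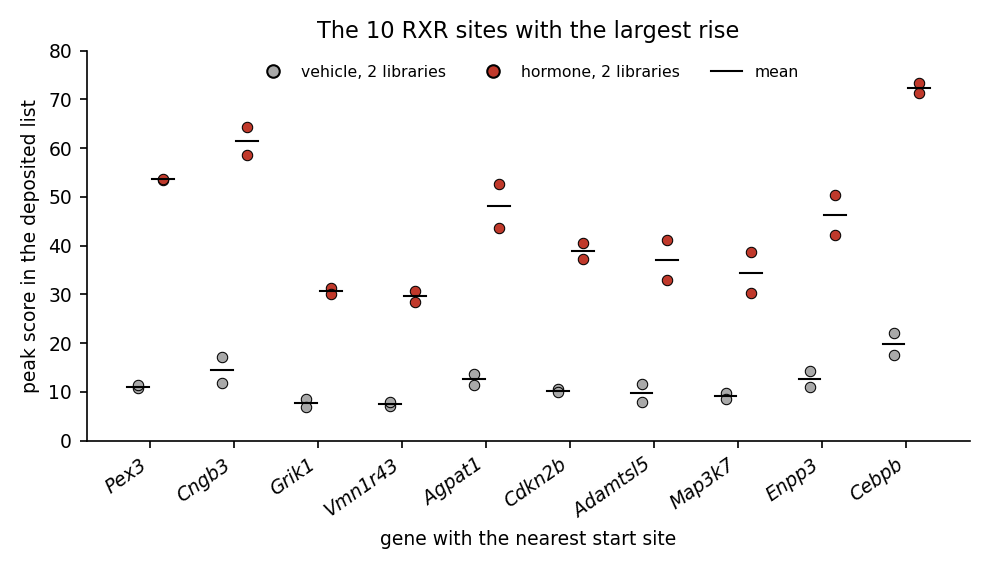
Deposited RXR peak score (y axis, from 0) in the 2 vehicle and 2 hormone libraries at the 10 RXR sites with the largest rise, named by the nearest TSS (x axis); short lines are means. All vehicle scores lie at 22 or below and all hormone scores at 28.5 or above.

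A few of the other sites that rose are given here, chosen after their values were seen and not as a group with a shared function. Sparc, which encodes the collagen-binding matrix protein osteonectin, held an intronic site 13.9 kb from its TSS. Its scores were 6.8 and 9.6 with vehicle and 23.5 and 20.8 with hormone, a log2 difference of 1.26 (limma, adjusted p = 0.00011). The site nearest to Dusp6, which turns off ERK signalling, was 25.0 kb away and went from 36.6 and 21.2 to 68.1 and 59.9. One 67.6 kb from Dusp5, a related phosphatase, went from 11.1 and 8.8 to 18.4 and 24.4. A site 17.9 kb upstream of the nearest TSS of Tcf7l2, a Wnt effector, went from 8.8 and 9.3 to 24.6 and 20.4. The site nearest to Cyp26b1, which breaks down retinoic acid, was 205 kb away and went from 7.6 and 6.3 to 21.6 and 15.3. A pair of sites near Pmepa1, an inhibitor of TGF-beta signalling, rose by log2 differences of 1.11 and 1.02. Of the 46 higher sites, 3 lay within 1 kb of a TSS, 20 were intronic and 21 intergenic. H3K27Ac covered 43 at day 3 and 44 at day 35, and 11 had a VDR peak with vehicle.

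Neither of the 2 sites called lower held a VDR site with hormone, and that of Pxmp3 had a VDR peak with vehicle. The site at the TSS of Rab33b, a GTPase of the Golgi, went from 9.7 and 9.6 to 4.1 and 5.1, a log2 difference of -1.27 (limma, adjusted p = 0.011). At the other, 284 kb from Pxmp3, the libraries overlapped (22.6 and 6.9 with vehicle, 14.1 and 3.8 with hormone, limma adjusted p = 0.029). Its log2 difference of -0.96 was -0.16 without vehicle replicate 1 and -0.02 without hormone replicate 2, but -1.77 without vehicle replicate 2 and -1.90 without hormone replicate 1. Its call was also lost with quantile normalization, without centring and with robust eBayes (limma, adjusted p = 0.051, 0.13 and 0.99). The Rab33b site lost its call without vehicle replicate 1, hormone replicate 1 or hormone replicate 2 (limma, adjusted p = 0.057, 0.39 and 0.065). Counting each of the 2 sites in each alternative fit that held it, the call was lost in 8 of 20 cases. Among uncalled sites whose libraries did not overlap, the largest falls were nearest to Cdkal1, Wwox and Ddr2, with log2 differences of -0.91, -0.89 and -0.86 (limma, adjusted p = 0.0617, 0.302 and 0.0502).

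The 8 best-ranked kept sites were picked by mean rank over the lists of both arms, so high scores in both are part of the choice. The site with the highest score in every list was nearest to Gm22, 125 kb away, and held VDR (116.3 and 86 with vehicle, 169.7 and 130.3 with hormone). Next came an intronic site 2.19 kb from the TSS of Cpt1a, the enzyme that commits fatty acids to oxidation in mitochondria. It had no VDR, with 91.4 and 74.7 with vehicle and 98.4 and 96 with hormone. The site nearest to Axin2, a Wnt inhibitor, held VDR with 52.6 and 58.8 and then 49.9 and 49.5. The others by this ranking were at the TSS of Lgr6, a receptor for R-spondins, and nearest to Slc1a3, Olig3, Rai14 and Trp63.

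Targets of RXR's other partner receptors had kept and gained sites. Genes were counted where a site lay in the gene or up to 50 kb from it. Such a site can lie nearer to the TSS of another gene, or at it. Of all 22380 protein-coding genes, 31.9% had any RXR site, 9.19% a gained site, 2.65% a gained site that held VDR, 19% a kept site and 0.165% a lost site. Of 14 PPAR targets, 8 had a kept site and 2 a gained one (Cpt1a and Acsl1), neither with VDR. The gained site of Cpt1a lay 40.3 kb upstream, within 1 kb of the TSS of Ighmbp2. Angptl4, which inhibits lipoprotein lipase, had an intronic kept site with 62.9 and 58.8 with vehicle and 54.7 and 68.1 with hormone, a log2 difference of -0.19 (SE 0.24). A lost site stood at the TSS of Pdk4, a brake on pyruvate oxidation, with 6.8 and 7.4, while a kept site 13.6 kb upstream had 43.8 and 29.1 and then 38.3 and 41.6.

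Of 11 retinoic acid receptor targets, 6 had a kept site and 4 a gained one (Rarb, Cyp26a1, Tgm2 and Rara). The kept site at the TSS of Rarb, itself a retinoic acid receptor, holds the exact DR5 printed above. Its scores were 27.1 and 17.9 with vehicle and 27.3 and 24.6 with hormone, a log2 difference of 0.04 (SE 0.24). The gained site of Rara, another such receptor, lay 0.335 kb upstream of its TSS, held VDR and had 13.4 and 13.8. Crabp2, a carrier of retinoic acid, had a lost site 42.5 kb away at the TSS of Hdgf, with 6.8 and 9.1.

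Of 12 liver X receptor targets, 4 had a kept site and 3 a gained one, all with VDR. Abcg5 and Abcg8, which encode the subunits of a sterol exporter and lie head to head, share 1 of these sites. The other was 33.9 kb from Lpcat3, nearest to the TSS of Emg1, with 8.2 and 5.9. The TSS site of Abca1, a cholesterol exporter, was kept, with 23.8 and 15.9 and then 26.2 and 22.7. Of 8 thyroid hormone receptor targets, 2 had a kept site and 1 (Bcl3) a gained one. The log2 differences of the tested sites of these lists ranged from -0.25 to 0.51 for PPAR, from -0.32 to 0.71 for retinoic acid receptor, from -0.09 to 0.20 for liver X receptor and from -0.08 to 0.16 for thyroid hormone receptor targets. The SEs of these single sites lay between 0.24 and 0.29, so a rise of the size seen over VDR sites as a group was not detectable at most of them.

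Of 23 vitamin D targets, 10 had a gained site, 7 of them with VDR, and 11 a kept one. The promoter site of Cyp24a1, which degrades the hormone, lay 0.273 kb upstream of its TSS and ranked in the lower 50% of both hormone lists, with 6.8 and 8.1 (percentiles 30.9 and 36.3). The strongest of these gained sites was the intronic site of Lrp5, a Wnt co-receptor, with 17.8 and 17.2. Next were the TSS site of Spp1, which encodes osteopontin, with 15 and 14, that 10.8 kb upstream of Mmp13, a collagenase, with 14.3 and 15.3, and that 54.0 kb from Trpv6, a calcium channel, with 14.1 and 16.1. The Trpv6 site was nearest to the TSS of Ephb6. That of S100g, a calcium-binding protein, lay 22.7 kb upstream, nearest to the TSS of Ctps2, with 9.3 and 13.2. The gained site of Enpp3 had 9.3 and 11.2. The gained sites of Bglap (osteocalcin), Enpp1 and Cdkn1a had no VDR and scores from 6.1 to 8.7. That of Bglap lay 25.5 kb upstream, within 1 kb of the TSS of Pmf1. That of Enpp1 lay 117 kb from its TSS, within 1 kb of the TSS of Ctgf. Of the Cdkn1a sites, that 38.3 kb from the TSS was nearest to Rab44. Lrp5 had a further gained site at its TSS without VDR, with 6.8 and 6.4. A site 1.93 kb upstream of Spp1 held VDR and had higher scores, 25 and 23.8 with hormone. It was not counted as gained, because vehicle replicate 1 had a peak there with 7, while vehicle replicate 2 had none.

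Osteocyte genes had kept sites more often than gained ones, as did all protein-coding genes. Of 14 osteocyte genes, 9 had a kept site (64.3%, beside 19% of all genes), among them Dmp1, Mepe, Fgf23 and Tnfsf11 (RANKL). Gained sites were at 1, Fbln7 (7.14%, near the 9.19% of all genes). Near Tnfsf11 the kept site lay 22.7 kb upstream, with 7.4 and 7.4 with vehicle and 7.5 and 9.3 with hormone. Near Fgf23, a phosphate-lowering hormone of bone, it had 12.5 and 12.6 and then 8.7 and 9.6, a log2 difference of -0.65 that was not called. Sost had no RXR peak in any list, and Phex and Runx2 had only sites that lacked a vehicle consensus site. Of 18 osteoblast genes, 6 had kept and 4 gained sites (Spp1, Bglap, Bglap2 and Omd), and of 14 mineralization genes 7 and 4 (Enpp1, Enpp3, Mgp and Spp1). Bglap and Bglap2 share 1 gained site, within 1 kb of the TSS of Pmf1. Of 18 Wnt genes, 9 had kept and 3 gained sites (Lrp5, Tcf7l2 and Lef1), and of 10 AP-1 genes 4 and 3 (Fos, Jund and Atf3).

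Among 19 genes of RXR and its partner receptors, 7 had kept sites and 2 gained ones. Rxra had 3 kept sites between 64.0 and 99.6 kb from its TSS, Rxrb peaks in single lists, and Rxrg no peak. Vdr had 1 kept site 3.86 kb upstream with 8.4 and 8.8 and then 8.4 and 10.8. An intronic Vdr site without VDR had 6.6 in vehicle replicate 1, no peak in vehicle replicate 2, and 11.8 and 12.1 with hormone. None of 15 co-regulator, 8 adipocyte, 7 myogenic, 9 haematopoietic or osteoclast and 10 housekeeping genes had a gained site, and 2, 5, 0, 2 and 1 of them had a kept one. Of 6 endothelial genes 1 (Kdr) and of 7 neural genes 1 (Tubb3) had a gained site. The genes nearest to most hormone sites were Myc, a growth regulator, with 16 sites, 10 of them kept, Runx1 and Zfp608 with 14 each, and Irf2bp2 and Tcf7l2 with 12 each. The most gained sites were nearest to 3930402G23Rik, with 5, and Gm22, with 4, followed by Apol7d, Car8 and Dusp6 with 3 each. The 3 gained sites of Dusp6 had no VDR.

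The DNA of gained sites with VDR differed from that of other RXR sites. An exact DR3, any 2 of the 4 half-sites above spaced by 3 bases on either strand, was in the central 200 bp of 16.7% (57 of 342) of gained sites with VDR and 4.03% (10 of 248) of kept sites with VDR. It was in 0.416% (4 of 961) of gained and 0.0628% (2 of 3186) of kept sites without. Windows of the same length 2 kb to each side of all hormone sites held it in 0.0369%. With 1 mismatch allowed the shares were 51.2%, 24.6%, 8.22% and 1.76%, beside 1.29% of the windows to each side. Among kept sites without VDR the most frequent repeat was DR5, in 2.07%, beside 0.0628% of their flanks. Kept sites with VDR held DR4, the repeat known for liver X receptors, in 4.43% (11 of 248), beside 4.03% with DR3. A single half-site was in 89.2% of gained and 82.7% of kept sites with VDR, and in 59.9% and 63.0% of those without, beside 37.4% of flanks.

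Motifs of other factors were counted in the same windows. The AP-1 motif TGANTCA was in 35.7% of all hormone sites and 6.24% of their flanks. It was in 25.1% of gained and 37.9% of kept sites with VDR, and in 32.5% and 35.3% of those without. The RUNX motif TGTGGTT was in 15.98% of sites (flanks 4.87%), the TEAD motif GGAATG in 20.9% (10.9%) and the C/EBP motif TTGCNNAA in 15.3% (8.15%), each on either strand. A match is a description of the letters, not evidence of a factor.

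Most gained sites already carried active marks in untreated cells, those with VDR less often. H3K27Ac, which marks active regulatory DNA, covered 71.1% (66.0 to 75.6) of gained sites with VDR at day 3 and 81.0% at day 35. It covered 89.3% and 94.9% of gained sites without VDR and 94.1% and 97.4% of all kept sites. Coverage at day 35 alone was seen at 14.3% (11.0 to 18.4) of gained sites with VDR and 3.902% (3.30 to 4.60) of kept sites. H3K4me2 at day 35 covered 59.9%, 86.2% and 92.6% of these 3 classes in the same order. H3K4me1, a mark of enhancers, covered 95.03%, 98.3% and 99.5%. Each mark has 1 library per day, so the days have no replicate check. Gained sites lay within 1 kb of a TSS in 11.8% (10.2 to 13.7) of cases, 8.19% with VDR and 13.1% without, and kept sites in 9.49% (8.56 to 10.5).

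**Figure D5:**
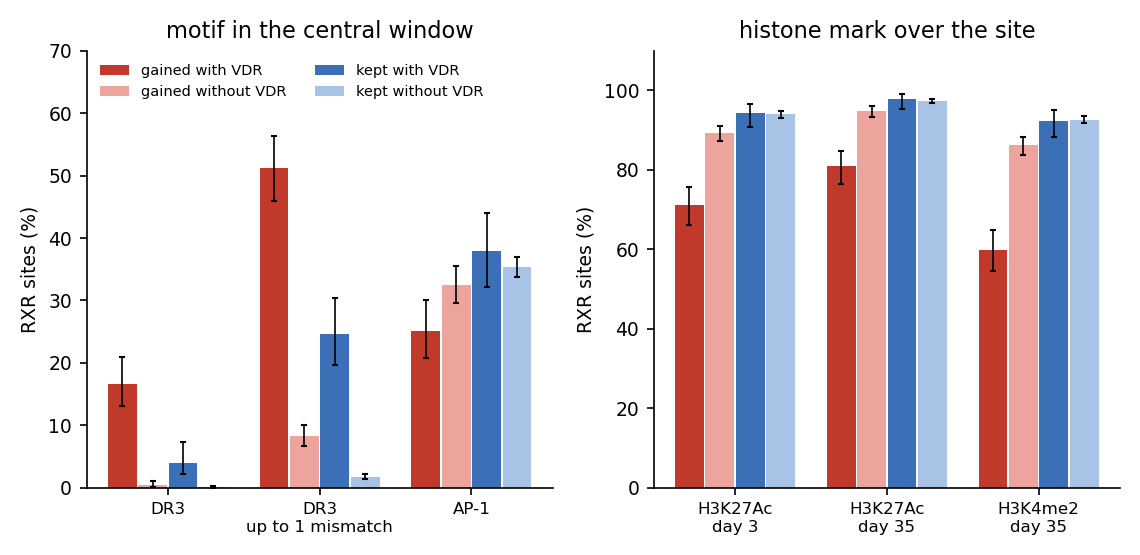
Percent of RXR sites (y axes, from 0) with a motif in the central 200 bp (left) or under a histone mark of untreated cells (right), for gained and kept sites with and without VDR; bars end in 95% Wilson intervals. Gained sites with VDR hold DR3 most often (16.7%, or 51.2% with 1 mismatch) and H3K27Ac and H3K4me2 least often.

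RXR sites were spread unevenly over the chromosomes, from 0.288 per Mb on X and 0.927 on chromosome 14 to 4.22 on chromosome 8 and 4.60 on chromosome 19. The gained share ranged from 13.7% on chromosome 9 to 25.9% on chromosome 14, where it rests on 30 of 116 sites.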

How the data were processed

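Lists of RXR peaks, VDR peaks and histone mark regions were used as deposited. Per the submitters' processing notes, Bowtie and HOMER were used with the mm9 build; versions, thresholds and whether inputs were used are not given there. The deposited lists give a position and the authors' peak score, on a scale that is not stated, for each sample separately. Replicates are biological replicates per the labels.

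Coordinates are 1-based. Genes came from GENCODE M1 on the same assembly, and each site took the protein-coding gene whose TSS was closest to its centre. Overlaps of at least 1 bp counted, also for marks. Sites with a peak in all 4 RXR lists were tested with limma 3.58.1 (R 4.3.3) on log2 scores centred per list, eBayes with trend and Benjamini-Hochberg adjustment at 0.05. The estimated prior degrees of freedom were infinite, so sites of like mean score shared their variance and a single site's own spread had no weight. Of several peaks of a list at a site, the best score was used. Single values per library were compared by exact permutation tests. Shares of sites carry 95% Wilson intervals for counting error; sites of a list are not independent. Code was tested on simulated peaks and scores.

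Genes were named by rule: the 12 gained, 8 kept and 8 lost sites of best mean rank, the 10 largest changes each way in the fit, listed target, receptor and bone genes with a gained or lost site, the 5 genes with most sites, and a short list of well-known genes. The peaks, gene lists and rules were chosen with earlier results of these data known. Alternatives were other overlaps, list lengths, windows, normalizations, single replicates and leaving out chromosome 10.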

Additional observations from a re-analysis of the deposited data

How the results depend on the processing

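Depth, score scaling and cut-offs are unknown, so site classes depend on where each list ends. An overlap of 50% of the shorter peak and leaving out chromosome 10 kept gained, lost, VDR, DR3 and gene shares within their intervals. With the higher-scoring 50% of each list, 21.9% of hormone sites were gained, 1.48% of vehicle sites lost, VDR stood at 39.6% of gained sites and 4.81% of genes had a gained site. With lists of equal length these were 13.2%, 7.85%, 58.6% and 2.71%, and DR3 stood at 9.43% of gained sites. With 1 replicate's lists alone, gained sites were 39.3% to 50.9%, lost sites 8.38% to 8.82%, and 22.9% to 24.8% of genes had a gained site. VDR peaks were then also those of that replicate. They stood at 13.3% to 13.7% of gained, 7.73% to 7.88% of kept and 1.75% to 1.98% of lost sites. DR3 stood at 2.01% to 2.07% of these gained sites. Where only overlap with a consensus site of the other arm counted, 49.4% were gained and 5.35% lost. VDR stood at 34% of gained sites with VDR peaks of either replicate, and DR3 at 19.5% with 1 mismatch. Genes with a gained site were 4.23% at 10 kb and 14.6% at 100 kb. The difference in TSS share turned to 0.833 points over all peaks.

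In the limma fit, 77 sites were called higher without centring, and between 18 and 64 when 1 library was left out. Sites called lower numbered 4 with quantile normalization, 1 without centring, 1 among the higher-scoring 50% of sites, and 0 to 3 when 1 library was left out. With a replicate block, 59 sites were called higher, 56 of them with VDR, and 4 lower. The labels do not say what equal replicate numbers share, and deviations of same-numbered libraries correlated at 0.18 over sites. Fits without the trend or with robust eBayes, chosen after seeing the data, called 43 and 45 higher and 3 and 2 lower. The cause of these differences was not tested.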
